A study of Drosophila melanogaster with 12 samples.

Results

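The genes described here encode the basement membrane proteins and other secreted proteins that *Drosophila* hemocytes, the blood cells of the fly, release into the body cavity. The 10 members were taken by gene name from the count table of the series: *Hml*, *Pxn*, *Col4a1*, *vkg*, *Ppn*, *LanA*, *LanB1*, *LanB2*, *Tig* and *SPARC*. Each name matched 1 row, so the set is 10 of the 23882 features in the table, and each of them was above the low-count filter in every comparison. No rule on measured values picked the names, but they were chosen with earlier results of these data known.

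The cells were Kc167 (Kc), an embryonic *Drosophila* line with hemocyte-like expression, grown without serum. RNA was taken 5 days after transfection with double-stranded RNA (dsRNA), which depletes the matching transcript by RNA interference. There were 4 groups of 3 libraries: dsRNA against dGcn5, the histone acetyltransferase of the SAGA and ATAC complexes, against Elp3, the catalytic subunit of Elongator, against nej, the fly CBP/p300 acetyltransferase, and against yellow, a pigmentation gene used as the control. All groups came from the same line, all received dsRNA, and nothing in the sources states whether replicates were separate cultures, so p-values measure the spread between these libraries, which may be technical.

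Basement membranes are thin sheets of extracellular matrix built on networks of laminin and collagen IV. In the fly, hemocytes and the fat body secrete much of this material, and hemocytes lay it down over the organs of the embryo as they migrate. Laminin and collagen IV are both assembled from several chains inside the cell before export, so that genes for chains of the same trimer have to be expressed together.

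Library totals ran between 19102102 and 23198850 counts. Gcn5 stood at 28.7, 43.2 and 48.5 CPM in the dGcn5 libraries, against 150, 135 and 128 CPM in the yellow libraries. CPM are counts scaled to the library total after TMM normalisation. In the libraries labelled Elp3, the Elp3 gene was higher, not lower, at 1899.8 to 4126 CPM, against 45.9 to 58.8 CPM in yellow, and in the libraries labelled nej, nej stood at 309, 3245 and 698 CPM, against 193, 205 and 46.8 CPM in yellow. Both targets go against a depletion of the transcript as counted here, so these groups are referred to by their labels. The level of y does not check the control label. Replicate 3 stood apart in dGcn5 and yellow. Pairs of replicates were scored by chi-square over its degrees of freedom. Replicate 3 scored 164 and 256 against the others in dGcn5, and 361 and 413 in yellow. Replicates 1 and 2 scored 39.0 and 30.0 against each other in these groups. With the Elp3 label, replicate 1 was the farthest (332 and 393, against 174). With the nej label no library was clearly apart (156 to 226). The members' fold changes are given with and without replicate 3 of every group, a choice that keeps the library labelled Elp3 replicate 1. Of the hemocyte markers, 8 of 9 passed the filter, including *srp*, *Pvr*, *ush*, *zfh1* and *eater*, while *gcm* was at 0 to 0.285 CPM. Their summed level was 1105 to 1977 CPM in dGcn5 and 1288 to 2578 CPM in yellow. It was 899 to 2029 CPM in the libraries labelled Elp3 and 1534 to 2098 CPM in those labelled nej. The markers did not all go the same way. None passed the adjusted test, but at an unadjusted p under 0.05 *He* (log2 fold change -1.50) and *NimC1* (-1.48) were lower and *crq* (0.91) higher in dGcn5, *eater* lower (-1.88) and *crq* higher (0.96) in the libraries labelled Elp3, and *eater* lower (-1.69) in those labelled nej. The crystal cell enzymes *PPO1* and *PPO2* and the fat body genes *Lsp1alpha*, *Lsp2*, *Fbp1* and *Fbp2* stayed below 0.5 CPM in every library. The other crystal cell markers, *lz* and *peb*, were low as well, with *peb* at 0.214 to 8.45 CPM. *lz* averaged 1.63 ± 1.24 CPM in the libraries labelled nej, against 0.384 ± 0.0952 CPM in yellow (SD, n = 3 each). Of the 5 fat body markers only *Lsp1beta* passed the filter. It stood at 4.63, 3.74 and 4.35 CPM in dGcn5 and at 1.03, 0.704 and 2.38 CPM in yellow. In the libraries labelled Elp3 it had 7.75, 4.73 and 3.64 CPM, and in those labelled nej 9.75, 9.82 and 5.46 CPM. Its log2 fold changes were 1.62, 1.93 and 2.61 in the dGcn5, Elp3 and nej comparisons, each at an unadjusted p under 0.05. These comparisons share the same yellow libraries, and the levels are low. Neither *lz* nor *Lsp1beta* passed the adjusted test. Of the lamellocyte markers all 4 passed, with summed levels of 580 to 954 CPM in dGcn5, 555 to 1427 CPM in the libraries labelled Elp3, 806 to 1333 CPM in those labelled nej and 531 to 1686 CPM in yellow. Most of each sum came from *cher* (201 to 910 CPM over the libraries) and *msn* (224 to 841 CPM). *PPO3* was at 15.1 to 53.1 CPM and *atilla* at 0 to 11.2 CPM. Muscle markers (4 of 4) and neuron markers (3 of 4) passed the filter too. Their summed levels over the libraries were 17.8 to 188 CPM and 23.5 to 52.2 CPM. Passing the filter therefore does not by itself identify the cell type. The part of these markers' variation in the results was not tested. In bulk libraries, fewer cells of a type and less RNA per cell cannot be told apart.

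Several members were among the features with the most reads. By mean CPM over the 12 libraries, *LanA* ranked 28, *Hml* 48, *LanB1* 74 and *LanB2* 102 among the 10368 features tested across all groups. CPM is not scaled to exon length, and these genes are long. Per kilobase of exon they ranked 393, 494, 294 and 343 among the same features, in that order. Together the 10 genes took 0.602%, 0.480% and 1.36% of all counts in the dGcn5 libraries, 0.362%, 0.723% and 1.15% in the libraries labelled Elp3, and 0.982%, 1.29% and 0.832% in the nej-labelled libraries, against 1.52%, 1.47% and 0.606% in yellow. The share was thus highest in yellow replicates 1 and 2, and yellow replicate 3 lay close to the low dGcn5 libraries.

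Per kilobase of exon, which allows levels to be compared between genes, the order over all 12 libraries ran downwards from *SPARC* at 345 CPM per kb. It was followed by the laminin chains *LanB1* (255), *LanB2* (230) and *LanA* (204 CPM per kb), and then by *Hml* (164) and *Tig* (80.1 CPM per kb). The lowest were *Col4a1* (49.3), *Ppn* (40.1), *Pxn* (37.9) and *vkg* (36.1 CPM per kb). Every neighbouring pair in this order overlapped over the libraries, and the pairs with the fewest exceptions were *Tig* above *Col4a1*, in 11 of 12 libraries, and *Hml* above *Tig*, in 10 of 12. Among the yellow libraries alone, the only neighbours with ranges apart were *Pxn*, at 53.4 ± 10.3 CPM per kb, and *Ppn*, at 31.1 ± 15.1 CPM per kb (SD, n = 3).

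The collagen IV genes *Col4a1* and *vkg* encode the alpha chains of the fly's only collagen IV. They lie head to head on chromosome arm 2L, *vkg* at 5012144 to 5028191 on the minus strand and *Col4a1* at 5029609 to 5037279 on the plus strand (BDGP6.32), with a gap of 1417 bp that holds no other annotated feature. *Col4a1* stood at 175, 99.0 and 435 CPM in dGcn5, 99.0, 112 and 314 CPM in the libraries labelled Elp3, and 197, 387 and 325 CPM in those labelled nej, against 566, 675 and 261 CPM in yellow. *vkg* had 170, 89.5 and 350.5 CPM in dGcn5, 97.1, 95.4 and 225.5 CPM in the libraries labelled Elp3, and 204.5, 235 and 229 CPM in those labelled nej, against 433, 484.5 and 201.5 CPM in yellow. For both genes yellow replicates 1 and 2 were the highest libraries of all, while yellow replicate 3 fell inside the range of the dGcn5 libraries and of those labelled Elp3.

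*Col4a1* had the lowest fitted log2 fold change of the set in the dGcn5 and Elp3 comparisons, and *vkg* the next in the Elp3 comparison. Against yellow, *Col4a1* had a log2 fold change of -1.09 (SE 0.57, 95% CI -2.42 to 0.23) in dGcn5, and *vkg* of -0.88 (SE 0.52). In the libraries labelled Elp3 these were -1.52 (95% CI -2.85 to -0.19) for *Col4a1* and -1.43 (95% CI -2.57 to -0.29) for *vkg*, and in the nej-labelled libraries -0.73 (SE 0.41) and -0.74 (SE 0.35). The intervals of the Elp3 comparison left out 0 for both genes, but no collagen IV change passed the edgeR quasi-likelihood F test, Benjamini-Hochberg adjusted across every feature tested, with adjusted p of 0.984, 1 and 0.968 for either gene in the dGcn5, Elp3 and nej comparisons.

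The chains kept close to each other from library to library. Over the 12 libraries the log2 levels of *Col4a1* and *vkg* correlated with r = 0.98 (permutation p = 2e-05, adjusted 4e-05 over 4 pairs of chains) and rho = 0.99 (permutation p = 1e-05, the smallest that 100000 resamples can give, adjusted 4e-05). Here and for the laminin chains, the permutations treat the libraries as interchangeable, although they share treatment groups and the length trends described below. The p-values therefore test only against no correlation at all. Without the 2 libraries farthest from the median of *Col4a1*, dGcn5 replicate 2 and the library labelled Elp3 replicate 1, r was 0.96, and within groups, after the group means were taken out, it was 0.97. A close correlation was not particular to chains of the same trimer. *Hml* had r = 0.93 with each of the 2 collagen IV genes, and *LanB1* had r = 0.90 with *Col4a1*. The ratio of *Col4a1* to *vkg* per kilobase had a median of 1.34 and a range of 1.02 to 1.74, while the level of each gene spanned 6.82-fold for *Col4a1* and 5.42-fold for *vkg*.

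The ratio of *Col4a1* to *vkg* was 1.09, 1.17 and 1.31 in the dGcn5 libraries, against 1.38, 1.47 and 1.36 in yellow. These groups did not overlap, with means of 1.19 ± 0.112 in dGcn5 and 1.40 ± 0.0566 in yellow (SD, n = 3 each) and a log2 difference of -0.25. The exact permutation test gave a two-sided p of 0.1, the smallest that 3 against 3 libraries allow, and an adjusted p of 0.75 over the 9 ratio comparisons, so the difference did not pass. In the libraries labelled Elp3 the mean ratio was 1.26 ± 0.197, and in the nej-labelled libraries it was 1.42 ± 0.365, both overlapping yellow. Without replicate 3 the log2 difference from yellow was -0.34 in dGcn5, -0.30 in the libraries labelled Elp3 and -0.10 in the nej-labelled libraries.

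**Figure D1:**
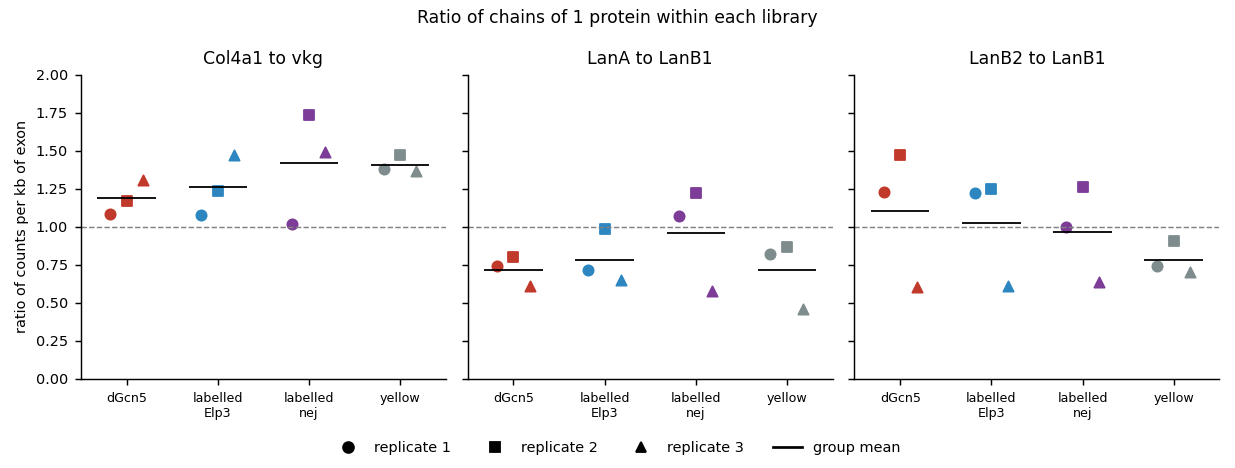
Ratios of chains of the same protein within each library, from counts per kb of exon, for Col4a1 to vkg (left), LanA to LanB1 (middle) and LanB2 to LanB1 (right). Each point is a library, its shape gives the replicate, the black line is the group mean and the dashed line marks a ratio of 1. The dGcn5 libraries sit at 1.09 to 1.31 for Col4a1 to vkg, below the yellow libraries at 1.36 to 1.47, and LanB2 to LanB1 is at its group's lowest in replicate 3 of all 4 groups.

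Laminin is a trimer of an alpha, a beta and a gamma chain. *LanA* encodes an alpha chain, at 6203831 to 6218022 on 3L, *LanB1* the beta chain, at 7811438 to 7820771 on 2L, and *LanB2* the gamma chain, at 9614914 to 9623980 on 3L. *LanA* stood at 1463, 1329 and 2675 CPM in dGcn5, 978 to 2455 CPM in the libraries labelled Elp3, and 2821, 4172 and 1616 CPM in those labelled nej, against 3874, 3827 and 992 CPM in yellow. *LanB1* stood at 1056, 894 and 2342 CPM in dGcn5, 733 to 2030 CPM in the libraries labelled Elp3, and 1412 to 1838.5 CPM in those labelled nej, against 2531, 2374 and 1165.5 CPM in yellow. As for collagen IV, the dGcn5 libraries of replicates 1 and 2 lay below the yellow libraries of the same numbers, and replicate 3 had the opposite order.

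*LanB2* was the steadiest member as measured, with a 2.84-fold range over the 12 libraries, while after the length correction described below *LanA* had the smallest SD (0.297 log2 units, 0.327 for *LanB2*). It averaged 1266 ± 59.5 CPM in dGcn5, 1195 ± 362 CPM in the libraries labelled Elp3 and 1470 ± 651 CPM in those labelled nej, against 1519 ± 663 CPM in yellow (SD, n = 3 each). In dGcn5, the log2 fold changes against yellow were -0.67 (SE 0.53) for *LanA*, -0.50 (SE 0.45) for *LanB1* and -0.26 (SE 0.36) for *LanB2*. In the libraries labelled Elp3 they were -0.56, -0.57 and -0.35, and in the nej-labelled libraries -0.01, -0.35 and -0.05. None of these 9 values passed the test, and the direction of *LanB2* in dGcn5 and in nej, and of *LanA* in nej, turned round in at least 1 fit that left out a single library.

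Within libraries the laminin chains were less closely tied than those of collagen IV. The ratio of *LanA* to *LanB1* per kilobase ran between 0.458 and 1.22, and that of *LanB2* to *LanB1* between 0.605 and 1.47. *LanB2* to *LanB1* was 1.23, 1.47 and 0.605 in dGcn5, 1.22, 1.25 and 0.613 in the libraries labelled Elp3, and 0.999, 1.26 and 0.634 in the nej-labelled libraries, against 0.741, 0.905 and 0.700 in yellow. Replicate 3 was the lowest library of each group. Over the 12 libraries r was 0.85 for *LanA* with *LanB1* (permutation p = 0.00076, adjusted 0.001), 0.90 for *LanA* with *LanB2* (p = 2e-05, adjusted 4e-05, same test) and 0.62 for *LanB2* with *LanB1* (p = 0.034, adjusted 0.034, same test). The rank correlations were 0.84, 0.86 and 0.61, with permutation p of 0.001, 0.00062 and 0.04 and adjusted p of 0.0014, 0.0012 and 0.04. Without the 2 libraries farthest from the median of the first gene, r was 0.81, 0.81 and 0.63, and within groups it was 0.85, 0.91 and 0.60. After that correction, r was 0.55 for *LanA* with *LanB1*, 0.61 for *LanA* with *LanB2* and 0.02 for *LanB2* with *LanB1*, and 0.96 for *Col4a1* with *vkg*. *LanB1* then had r = 0.93 with *Col4a1* and 0.87 with *SPARC*, which are not laminin chains. Exact permutation tests of the 6 laminin ratio comparisons gave adjusted p of 0.75 to 1. For *LanB2* to *LanB1* the log2 difference from yellow was 0.41 in dGcn5, 0.33 in the libraries labelled Elp3 and 0.25 in the nej-labelled libraries, and without replicate 3 it was 0.72, 0.59 and 0.45.

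*Hml* encodes hemolectin, a large secreted protein with a role in hemolymph clotting that serves as a marker of larval hemocytes. It lies at 13846054 to 13860001 on 3L and has the longest exon model of the set, 11756 bp. *Hml* stood at 850, 512 and 3189 CPM in dGcn5, 402, 689 and 2419 CPM in the libraries labelled Elp3, and 2295, 2522 and 1837 CPM in those labelled nej, against 3825, 3430 and 1121 CPM in yellow. As measured it varied more than any other member, 9.52-fold over the 12 libraries, while after the length correction *Pxn* had the largest SD (0.936 log2 units, 0.826 for *Hml*). The mean in dGcn5 was 54.3% of the yellow mean and that of the libraries labelled Elp3 41.9%, with log2 fold changes of -0.89 (SE 0.72) and -1.25 (SE 0.75), and all 3 groups overlapped yellow. In the libraries labelled nej the log2 fold change was -0.33 (SE 0.45).

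*Pxn* encodes peroxidasin, a secreted heme peroxidase that crosslinks collagen IV. It lies at 2601455 to 2630064 on the minus strand of 3L, where 82 bp of its exons overlap *CG16986* on the opposite strand and 151 bp overlap *lncRNA:CR45660* on the same strand. Its counts may therefore hold or lack reads of those features. *Pxn* stood at 146, 101 and 230 CPM in the libraries labelled nej, against 388.5, 291 and 275 CPM in yellow. This was the only member in any of the 3 comparisons whose libraries did not overlap yellow, with a log2 fold change of -0.99 (SE 0.34, 95% CI -1.79 to -0.19). Of all features in that comparison, 5.27% had all 3 libraries labelled nej below all yellow libraries, and the adjusted p of *Pxn* was 0.968 by the edgeR quasi-likelihood F test, Benjamini-Hochberg adjusted. In dGcn5 *Pxn* stood at 106, 62.1 and 514 CPM and in the libraries labelled Elp3 at 78.6, 106 and 407 CPM, where replicates 1 and 2 were below every yellow library and replicate 3 above all of them. The shares of features with all 3 libraries below yellow were 3.85% in the dGcn5 comparison and 3.91% in the Elp3 comparison, and no member was among them.

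*Ppn* encodes papilin, a secreted proteoglycan-like protein of basement membranes, at 28520665 to 28540324 on 3R. It was the only member with a higher mean in the libraries labelled nej, 621 ± 338 CPM, against 296 ± 144 CPM in yellow (SD, n = 3 each), or 209% of the yellow mean. The libraries labelled nej stood at 625, 957 and 280 CPM, and the yellow libraries at 400, 357 and 132 CPM, so that replicate 3 was the lowest in both. The log2 fold change was 1.07 (95% CI -0.20 to 2.33) and did not pass the test. In dGcn5 *Ppn* had 282, 163 and 411 CPM, a log2 fold change of -0.05 (SE 0.47), and in the libraries labelled Elp3 162, 308.5 and 517.5 CPM, a log2 fold change of 0.15 (SE 0.55).

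*Tig* encodes tiggrin, a secreted integrin ligand, at 6415179 to 6423310 on 2L, with 157 bp of exon opposite *CG13982*. It averaged 438 ± 342 CPM in dGcn5, 509 ± 275 CPM in the libraries labelled Elp3 and 646 ± 97.7 CPM in those labelled nej, against 654 ± 187 CPM in yellow (SD, n = 3 each). The log2 fold changes were -0.58, -0.36 and -0.01, and all groups overlapped yellow.

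*SPARC* encodes a calcium-binding glycoprotein that binds collagen IV and is needed in the fly for a normal basement membrane. It lies at 26869238 to 26871995 on 3R, and its exon length of 1201 bp is the shortest of the set, where the other 9 span 5916 to 11756 bp. *SPARC* had 365, 351 and 748 CPM in dGcn5, 303, 175 and 422 CPM in the libraries labelled Elp3, and 241, 300 and 505 CPM in those labelled nej, against 406, 359 and 794.5 CPM in yellow. Here yellow replicate 3 was the highest of the 12 libraries, whereas it was the lowest of the 12 for *Ppn* and *LanB2*. The log2 fold changes were -0.10 (SE 0.42), -0.82 (SE 0.44) and -0.57 (SE 0.41) in the dGcn5, Elp3 and nej comparisons.

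**Figure D2:**
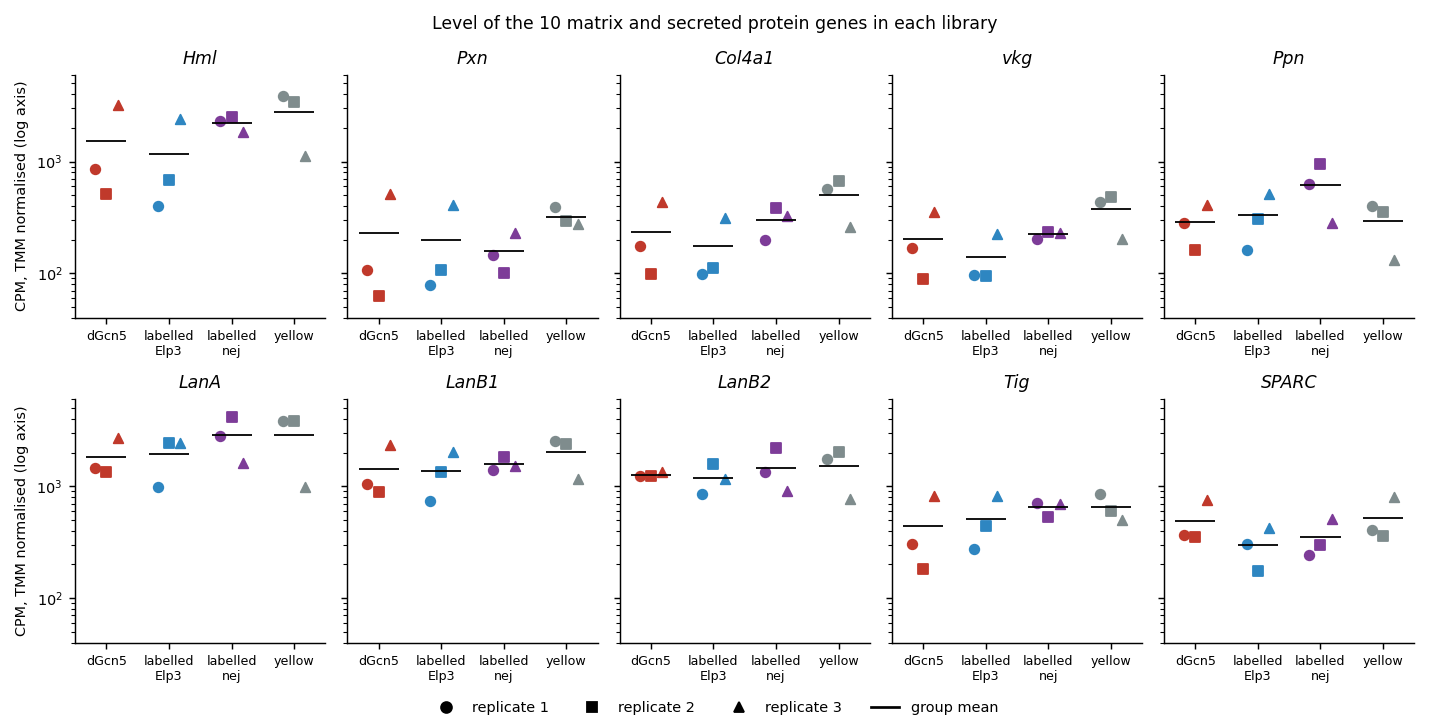
Level of each of the 10 genes in each library, in CPM after TMM normalisation on a log axis, with dGcn5, the libraries labelled Elp3 and nej, and yellow from left to right. Each point is a library, its shape gives the replicate and the black line is the group mean. In Hml the dGcn5 points of replicates 1 and 2 (850 and 512 CPM) lie below the yellow points of the same numbers (3825 and 3430 CPM), and replicate 3 has the opposite order (3189 CPM in dGcn5, 1121 CPM in yellow).

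Taken over the set, none of the 10 members passed the test in any comparison. Across all features, 0% of 9820 passed in the dGcn5 comparison, 0.0101% of 9915 in the Elp3 comparison, which was the Elp3 gene itself, and 0% of 9816 in the nej comparison. The smallest adjusted p over all features were 0.421, 0.0136 and 0.382 by the edgeR quasi-likelihood F test, Benjamini-Hochberg adjusted. DESeq2 called 42, 23 and 44 genes in the same libraries and none of the members. At an unadjusted p under 0.05, 0, 2 and 1 members passed in the dGcn5, Elp3 and nej comparisons: *Col4a1* and *vkg* for Elp3, and *Pxn* for nej. The shares of all features past that mark were 3.67%, 3.86% and 3.65%. For nej, where libraries of the same replicate number may or may not be pairs, a fit with the number as a block was also made. It left 4 members past that mark, *Pxn* (-1.07), *vkg* (-0.65), *SPARC* (-0.55) and *Ppn* (1.05), with 11.5% of all features, and 7 members below 0. *Ppn* was higher than in yellow at each replicate number, and no member passed the adjusted test.

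A test over the 4 groups together called 0.00965% of 10368 features at an adjusted p under 0.05, again only Elp3, and no member. No member had an unadjusted p under 0.05 there, a mark that 3.6% of features passed, and *vkg* came closest to it. The median log2 fold change of the members was -0.54 in dGcn5, -0.63 in the libraries labelled Elp3 and -0.34 in the nej-labelled libraries, beside -0.03, -0.02 and 0.01 over all features tested. The sign was negative for 10, 9 and 9 of the 10 members, beside 52.9%, 51.9% and 49.3% of all features. All 3 comparisons use the same yellow libraries and most members vary together, *SPARC* least with the others, so these counts are not separate observations.

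The biological coefficient of variation was 38.2% in the dGcn5 comparison, 42.7% in the Elp3 comparison and 41.5% in the nej comparison. The median half-width of the members' 95% intervals was 1.22, 1.22 and 0.96 log2 units, wider than the 0.80, 0.94 and 0.84 over all features. The counts behind the members lay between 1346 and 86917 per library.

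Without replicate 3 of every group, which leaves 2 libraries against 2, the dGcn5 comparison gave a different result. 9 of the 10 members then passed, all lower in dGcn5, where 43.4% of all features passed, 2198 of them lower and 2077 higher. *Hml* had a log2 fold change of -2.40 (SE 0.23, adjusted p = 0.000422 by the edgeR quasi-likelihood F test, Benjamini-Hochberg adjusted), *Col4a1* of -2.16 (SE 0.25), *Pxn* an interval of -2.56 to -1.44 (95% CI), and *vkg* of -1.81 (SE 0.26). *Tig* (-1.57), *LanA* (-1.45), *LanB1* (-1.31), *Ppn* (-0.75) and *LanB2* (-0.61) were lower by less. *SPARC* was the exception, with a log2 fold change of -0.08 (95% CI -0.34 to 0.19, adjusted p = 0.605 by the same edgeR test). The median over the members was -1.51, beside 0.04 over all features. In dGcn5 and yellow, the libraries kept were the pair most alike by these same counts. The p-values here and in the later dGcn5 fits without replicate 3 rest on a spread made smaller by that choice, and may be too small. The SE of *Hml* was 0.23 here and 0.72 with all 3 replicates.

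In the Elp3 and nej comparisons no member passed without replicate 3, where 0% of features passed in either. At an unadjusted p under 0.05, 6 members were below the mark in the Elp3 comparison, with 13.5% of all features, and 7 in the nej comparison, with 8.78% of all features. *Hml* had a log2 fold change of -2.75 (95% CI -3.78 to -1.72) and *Col4a1* of -2.58 (95% CI -3.35 to -1.81) in the libraries labelled Elp3, and *Pxn* had -1.47 and *Ppn* 1.04 in those labelled nej. In replicate 3 alone, with 1 library per group and no test, the members mostly had the opposite sign: only 1, 1 and 2 of the 10 were lower than in yellow in the dGcn5, Elp3 and nej comparisons, with median log2 ratios of 0.85, 0.66 and 0.34. Leaving out dGcn5 replicate 3 alone or yellow replicate 3 alone called no member, and what set these libraries apart was not tested.

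**Figure D3:**
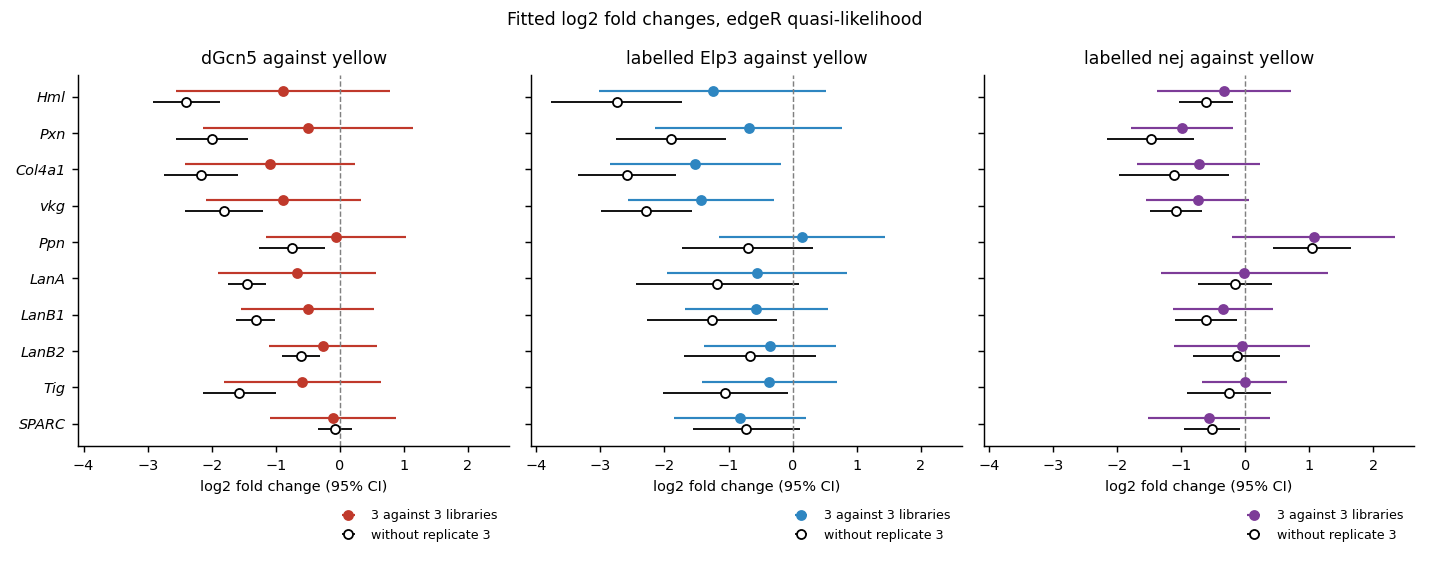
Fitted log2 fold changes of the 10 genes against yellow with 95% confidence intervals, for dGcn5, and for the libraries with the Elp3 and nej labels. Filled coloured points use 3 against 3 libraries and open black points leave out replicate 3 of every group. For dGcn5 the open point of Hml lies at -2.40 and its filled point at -0.89, the intervals of all 10 filled points cross 0, and of the open points only that of SPARC, at -0.08, does so.

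A trend with transcript length moved with these values. In each library the deviation of all features from their mean over the 12 libraries was set against log2 exon length. The slope per doubling of length was -0.13, -0.21 and 0.05 log2 units in dGcn5, -0.34, 0.15 and 0.14 in the libraries labelled Elp3, and 0.19, 0.23 and -0.02 in the nej-labelled libraries, against 0.13, 0.15 and -0.33 in yellow. The members are long, with a median exon length of 6392 bp beside 2076 bp over all features tested. Their mean deviation was -0.45, -0.97 and 0.72 log2 units in dGcn5, -1.05, -0.53 and 0.43 in the libraries labelled Elp3, and 0.11, 0.40 and 0.09 in the nej-labelled libraries, against 0.79, 0.70 and -0.23 in yellow. The 4 libraries with slopes of -0.13 or below all had members below their mean, and so did the library labelled Elp3 replicate 2, which had a positive slope. The part of the length trend in the members' differences was not tested beyond the correction that follows.

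After each library's length trend had been taken out, the mean deviation of the members was -0.15, -0.52 and 0.55 in dGcn5, -0.42, -0.83 and 0.07 in the libraries labelled Elp3, and -0.24, 0.04 and 0.14 in the nej-labelled libraries, against 0.51, 0.44 and 0.40 in yellow. The yellow libraries then lay close together, and dGcn5 replicate 3 still lay above dGcn5 replicates 1 and 2. The median SD of the members over the 12 libraries was 0.531 after the correction and 0.780 before it, beside 0.379 and 0.486 over all features. With all 3 replicates and no replicate block, no member passed the adjusted test after this correction in any comparison. At an unadjusted p under 0.05, 2, 4 and 6 members passed in the dGcn5, Elp3 and nej comparisons. Over all features, 782 of 9820, 911 of 9915 and 492 of 9816 passed that mark. Log2 fold changes of *Col4a1* were then -0.96 in dGcn5, -1.54 in the libraries labelled Elp3 and -0.88 in the nej-labelled libraries.

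With both the length correction and replicate 3 left out, a fit added after the values had been seen, 8 members passed in dGcn5, all lower, where 25.3% of all features passed. *Col4a1* had a log2 fold change of -1.52 (adjusted p = 0.00657 by the edgeR quasi-likelihood F test, Benjamini-Hochberg adjusted), *Hml* of -1.48 (adjusted p = 0.00544 by the same edgeR test) and *SPARC*, which had not passed before the correction, of -0.44 (adjusted p = 0.0221 by the same edgeR test). *LanB2* (0.04) and *Ppn* (0.09) were the pair that did not pass. In the libraries labelled Elp3, *Hml* (-2.15), *Col4a1* (-2.02), *Pxn* (-1.40) and *SPARC* (-1.06) passed, where 4.12% of all features did. In the nej comparison no member passed, but with the length correction and the replicate number as a block *Pxn* did, where 0.224% of all features passed. A fit with limma-voom that weights libraries by their quality called 8 members in dGcn5, all lower, and 48.5% of all features, and 7 members over the 4 groups, with 37.1% of all features. It gave dGcn5 replicate 3 and yellow replicate 3 the lowest weights of that comparison, 0.232 and 0.111.

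**Figure D4:**
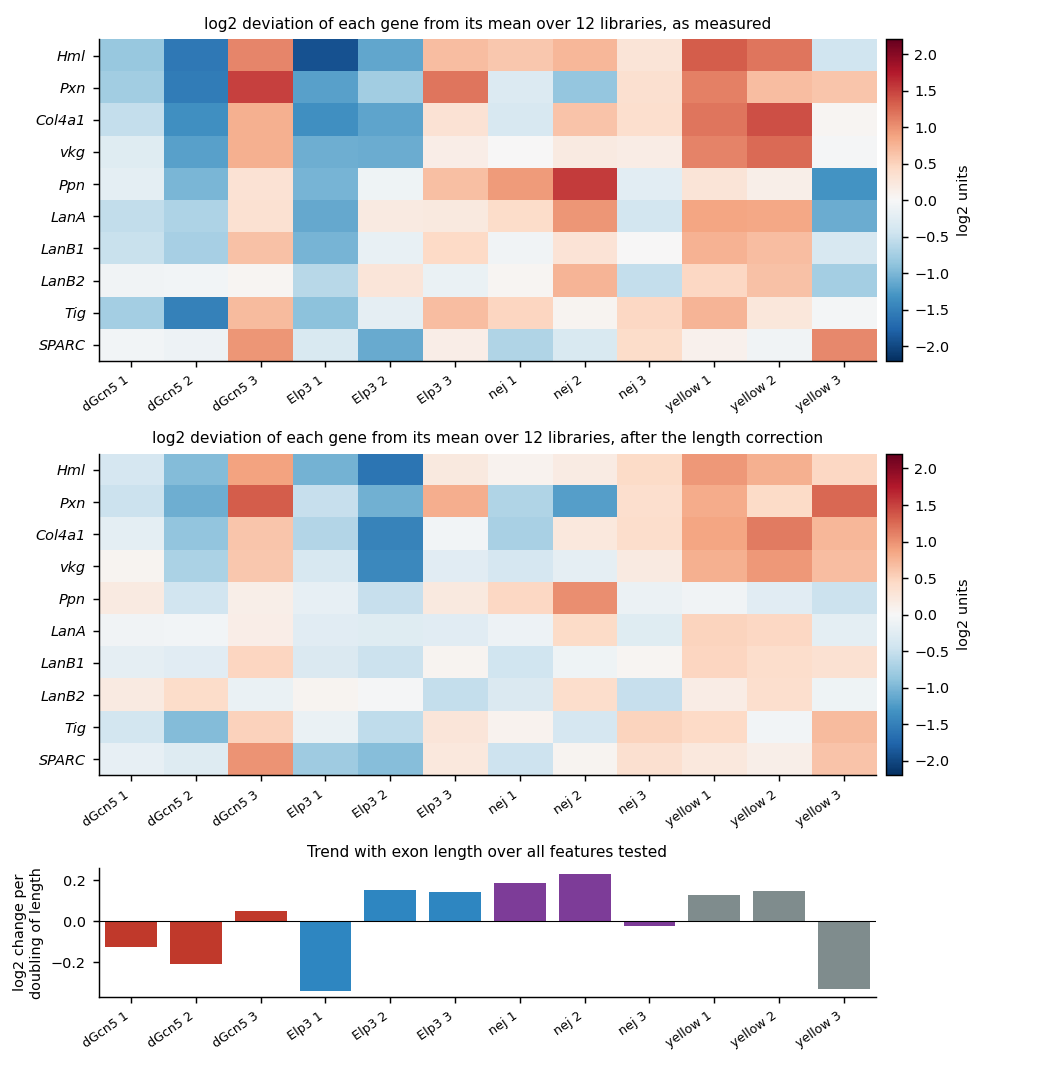
Log2 deviation of each of the 10 genes from its own mean over the 12 libraries, as measured (top) and after the length correction (middle), with red above and blue below the mean, and the slope of all features on log2 exon length in each library (bottom, bars from 0). Libraries run from dGcn5 through those labelled Elp3 and nej to yellow. In yellow replicate 3, whose slope is -0.33, the mean deviation of the members is -0.23 before and 0.40 after the correction.

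The genes closest to the set in pattern were found over the 12 libraries, among 6589 other genes with a mean of at least 10 CPM, by the correlation of their log2 level with the mean deviation of the members. As measured, these were *CG10417* (r = 0.97), *CG30015*, *Samuel*, *Hem* and *CG6227*, the last with r = 0.96. After the length correction they were *CG6126* (r = 0.96), *AP-1mu*, *CG8668*, *mRpL51* and *zda*, the last with r = 0.95, so that the names depended on the correction. These r describe the 12 libraries, which share treatment groups and length trends.

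Other genes of matrix assembly and hemocyte secretion were taken as a list of 29: further matrix components, proteins of collagen IV folding and export, crosslinking and turnover enzymes, receptors and other secreted hemocyte proteins. Of these, 26, 25 and 26 could be tested in the dGcn5, Elp3 and nej comparisons and none passed. The median log2 fold changes of the list were -0.41, -0.27 and -0.08.

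In the collagen IV folding and export list no gene was under an unadjusted p of 0.05, and the 3 most abundant are given. *Pdi*, a protein disulfide isomerase, had 1029, 924 and 1173 CPM in dGcn5, against 1178, 1008 and 1437 CPM in yellow, a log2 fold change of -0.22 (SE 0.24). *Plod*, the lysyl hydroxylase of collagen, had 515, 476 and 652 CPM in dGcn5, against 657, 637 and 580 CPM in yellow, a log2 fold change of -0.19 (SE 0.22). *Sar1*, a GTPase of vesicle export from the endoplasmic reticulum, had a log2 fold change of 0.05 (SE 0.25). These changes were smaller than those fitted for the collagen IV genes, but the difference was not tested. *Pdi*, *Plod* and *Sar1* are also shorter, with 2328, 2630 and 1815 bp of exon, against 6165 bp for *Col4a1* and 6503 bp for *vkg*. The part of length in this difference was not tested. In dGcn5, 5 of the 8 genes of this list were below 0. The largest falls were *Crag* (-0.68, SE 0.35), *Tango1* (-0.49, SE 0.28) and *PH4alphaEFB* (-0.46, SE 0.22), named after their values were seen. The matrix receptor *Dg*, dystroglycan, had log2 fold changes of 0.01, 0.28 and 0.39 in the dGcn5, Elp3 and nej comparisons.

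Among matrix components, *trol*, the fly perlecan, had 13.0, 11.8 and 12.7 CPM in dGcn5, against 29.1, 44.4 and 3.89 CPM in yellow, with yellow replicate 3 the lowest of these, as for *Ppn*, *LanA* and *LanB2*. It was chosen after its values were seen. *Ndg*, the nidogen that binds laminin and collagen IV, was at 4.72, 3.58 and 2.37 CPM in the libraries labelled nej, against 0.0893, 0.528 and 0.795 CPM in yellow. It had the smallest p of the list (log2 fold change 2.90, SE 0.75, adjusted p = 0.968 by the edgeR quasi-likelihood F test, Benjamini-Hochberg adjusted). *Mmp1*, a matrix metalloprotease, had 125, 137 and 151 CPM in the libraries labelled nej, against 338, 322 and 175 CPM in yellow (log2 fold change -1.01, SE 0.30), and did not pass.

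*Timp*, an inhibitor of metalloproteases, was near the filter, at 0.0923 to 0.198 CPM in dGcn5 against 0.440 to 0.625 CPM in yellow, with a log2 fold change of -1.80 (SE 0.58). The secreted imaginal disc growth factor *Idgf2* was below an unadjusted p of 0.05 in all 3 comparisons, with log2 fold changes of -0.77 (SE 0.30) in dGcn5, -0.94 (SE 0.36) in the libraries labelled Elp3 and -1.93 (SE 0.72) in the nej-labelled libraries. Its relative *Idgf6* was under that mark in the Elp3 comparison alone, with a log2 fold change of -1.35 (SE 0.57). Without replicate 3, 14 of the 26 genes of the list passed as lower in dGcn5 and 4 as higher, where 43.4% of all features passed, and none passed in the other comparisons. Of the folding and export genes, *Crag* (-1.11), *Tango1* (-0.84), *Plod* (-0.37) and *PH4alphaEFB* (-0.34) then passed as lower in dGcn5. *loj* (0.37) and *Sar1* (0.35) passed as higher, while *Pdi* (-0.15) and *Rab10* (0.09) did not pass. The receptor *Dg* (-0.34) passed as lower.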

How the data were processed

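Total RNA of Kc cells was made into stranded poly(A) libraries and sequenced in pairs. According to the study's methods, the authors trimmed reads with Trim Galore, removed rRNA reads with SortMeRNA, aligned with STAR to BDGP6.32 and counted reads on exons with featureCounts and the Ensembl release 105 annotation. The deposited table holds raw counts for 23882 features, of which 6052 have no gene name. The adapters carried molecular identifiers, but whether they were used to remove duplicates, and the strand setting of the counting, are not given in the sources used here.

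Groups came from the sample titles and the columns from their descriptions. Each group was compared with yellow in edgeR 4.0.16 (R 4.3.3), on the 6 libraries of the comparison, with the default low-count filter (minimum count 10), TMM factors and the quasi-likelihood F test, with Benjamini-Hochberg adjustment over all features tested and a threshold of 0.05. An F test over 4 groups used all 12 libraries. CPM values use TMM factors over the 12 libraries. The length correction fitted a spline (5 df) on log2 exon length in each library and entered it as an offset. Ratios of chains were tested by exact permutation, and correlations of chains by 100000 permutations. Alternatives were limma 3.58.1 (voom with quality weights), DESeq2 1.42.0, other filters and factors, the replicate block, and libraries left out. The edgeR fits were also run on simulated counts, which had a much smaller spread than these libraries, no length trend and no library set apart. That run checks the code and does not give the power or the error rate in these data.

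The members, the gene lists and the alternatives were chosen with earlier results of these data known. All members were named. Of the lists of matrix and secretion genes, those under an unadjusted p of 0.05 in a comparison were named or, where a list had none, its 3 most abundant. The gene *trol* and the other folding and export genes were named after their values were seen. Library totals had a median of 20883013.5 counts. Replicate pairs of the same group all differed by far more than counting noise, with a chi-square per degree of freedom of 30.0 or more, so none was counted as a duplicate. The replicate numbers in the titles were checked as pairs. Deviations of libraries labelled nej and of yellow libraries with the same number correlated at 0.14, 0.47 and 0.63 over features. Those of dGcn5 (-0.12, 0.20 and -0.01) and Elp3 (-0.64, 0.72 and -0.10) did not all correlate positively. Unlike numbers also correlated, at 0.21 for nej replicate 1 with yellow replicate 2 and 0.63 for Elp3 replicate 1 with yellow replicate 3. The numbers are therefore not established as pairs, and fits with them as a block are alternatives. With the number as a block, the nej comparison called 2 genes instead of 0 and no member.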

Additional observations from a re-analysis of the deposited data

How the results depend on the processing

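Of 540 refits of the members' log2 fold changes, 479 kept their direction and their side of the threshold, 30 came to pass it and 31 changed sign. No cause was tested.

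Genes called in the dGcn5 comparison were 42 with DESeq2, 4765 with limma-voom weights (8 members), 4275 without replicate 3 of every group (9 members) and 2492 with the length correction as well (8 members), against 0 as reported. For Elp3, where 1 was reported, DESeq2 called 23, limma-voom 2, the fit without replicate 3 called 0, and with the length correction as well 408 (4 members). For nej, where 0 was reported, DESeq2 called 44 and the length correction, limma-voom and a fit of all 12 libraries 1 each. Over 4 groups, where 1 was reported, no filter gave 3, the length correction 2, the newer edgeR quasi-likelihood method 2, DESeq2 82, limma-voom 3844 (7 members) and the length correction without replicate 3 gave 3. Leaving out single libraries gave 0 to 1 genes for Elp3, with 0 without Elp3 replicate 3 or any yellow library, 0 for dGcn5 and nej, 1 over 4 groups and no member in any.

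With the replicate block, Elp3 had 0 calls and nej 2. With the block and the length correction, nej had 22 calls (1 member, *Pxn*) and the 4 groups 3. The block turned nej *LanA* to 0.13 and *Tig* to 0.012, and with the length correction dGcn5 *Ppn* to 0.25 and *LanB2* to 0.013. The block changed no other count of calls by over 1.5 times. Equal replicate numbers are not established as pairs in any comparison.

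Some signs changed. For dGcn5, *Ppn* became 0.26 and *LanB2* 0.017 with the length correction, and 0.094 and 0.041 without replicate 3 as well. For Elp3, *Ppn* became -0.17 with limma-voom, -0.70 without replicate 3 and -0.17 with the length correction too. For nej, *Tig* became 0.0028 with DESeq2 and with its size factors in edgeR. Without single libraries, *Ppn* ran between -0.40 and 0.26 in dGcn5 and between -0.35 and 0.50 in Elp3, *LanB2* between -0.54 and 0.011 in dGcn5 and between -0.45 and 0.21 in nej, *SPARC* between -0.53 and 0.39 in dGcn5, *LanA* between -0.43 and 0.26 and *Tig* between -0.18 and 0.23 in nej. The log2 ratio differences from yellow ran between -0.19 and 0.20 for *Col4a1* to *vkg* in nej, and for *LanA* to *LanB1* between -0.13 and 0.33 in Elp3 and between -0.24 and 0.22 in dGcn5. Depth was not varied. Library totals are given in the report.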
